A study of Homo sapiens with 6 samples.

Results

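The genes of 10 ETS transcription factors, PU.1 (SPI1), SPIB, FLI1, ERG, ETS1, ETS2, ETV6, ELF1, ELF4 and GABPA, were examined for chromatin occupancy of GSE1 in NB4 cells, a human acute promyelocytic leukemia line. A peak was assigned to a gene when it overlapped the GENCODE gene span extended by 50 kb on each side, which gave 29 of the 21401 peaks called in DMSO-treated cells and 8 of the 13233 peaks called in MC2580-treated cells. The 10 genes were a named set among 20033 protein-coding genes and were not picked by a threshold on the peaks. They were, however, chosen with earlier results of these data known, which limits the comparisons with other genes below. V5-tagged GSE1 (transcript variant 2) was expressed from the lentiviral vector pLEX_307, so the occupancy is that of an exogenous, tagged protein. These cells received DMSO or the LSD1 inhibitor MC2580 at 2 µM for 24 h. The control was an untreated NB4 culture carrying the empty vector (EV), and each of the 3 cultures gave 1 V5 ChIP library and 1 input library.

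ETS proteins share a winged helix-turn-helix DNA-binding domain that reads a GGAA core, and the bases on either side of the core differ between subfamilies. PU.1, encoded by SPI1, is the lineage factor of monocytes and granulocytes, and its level decides much of the path that a myeloid progenitor takes. LSD1 is a histone demethylase that works in myeloid blasts together with the repressor GFI1, at many elements that PU.1 also occupies, and LSD1 inhibitors push leukemic blasts towards myeloid differentiation. GSE1 is a subunit of complexes that hold LSD1 and histone deacetylases. The comparison asked where V5-GSE1 was called at the ETS genes and which of these places were still called upon MC2580.

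Because each condition had 1 library, every difference below is a difference between 2 peak lists, with no replicate check and no test. Each peak carries the score that MACS gave it, 10 times the negative log10 of its p-value, and the threshold of 1e-05 is a score of 50. The score depends on the depth of the libraries, which is unknown here, as well as on the enrichment, and both lists used the same EV library as background. The lists also held 118 bins of 1 Mb with at least 40 peaks each. Outside these dense bins there were 10446 DMSO peaks, and the 4439 MC2580 peaks there gave a ratio of 0.425, against 0.618 for the full lists. No peak at the 10 genes lay in a dense bin, so comparisons with the lists are also given for the peaks or windows away from these bins. Intervals given for shares are 95% Wilson intervals, which like the limit given for a count of 0 cover counting error only.

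In DMSO, V5-GSE1 peaks lay around 9 of the 10 genes, and GABPA, which encodes the DNA-binding subunit of the GA-binding protein, was the exception. A DMSO peak in the window was found for 47.9% of all protein-coding genes and for 44.3% of those whose window touched no dense bin. The windows of the ETS genes were larger than usual, with a median of 187 kb against 127 kb. With an equal span of 50 kb on each side of the reference start site, 9 of the 10 genes again had a DMSO peak, against 39.8% of coding genes, and 5 had an MC2580 peak, against 22.0%. The 29 peaks came to 14.1 per Mb of window in DMSO, against 9.19 per Mb over the windows of all coding genes and 4.72 per Mb over those that touched no dense bin. At least 4 DMSO peaks were found at SPI1, FLI1, ETS1 and ELF1, a number reached by 12.7% of coding genes and by 7.47% of those away from dense bins. At least 2 were found at 7 of the 10 genes, against 28.4% and 23.7%. Within 50 kb of the reference start site, SPI1 with 5 and ELF1 with 4 still had at least 4 peaks, against 8.61% of coding genes, whereas ETS1 and FLI1 had 3 each.

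Upon MC2580, 8 peaks were called around 6 genes, SPI1, FLI1, ERG, ETS1, ETV6 and ELF1. An MC2580 peak was present for 27.3% of coding genes, or 22.6% away from dense bins. The same 6 genes had peaks in both lists, as had 25.1% of coding genes, or 20.3% away from dense bins. The 8 peaks came to 3.90 per Mb, against 5.40 per Mb over all coding windows and 1.78 per Mb over those that touched no dense bin. The number of peaks was thus 72.4% lower in MC2580, a ratio of 0.276. This ratio was 0.618 for the full lists and 0.425 away from dense bins. The ratio at the ETS genes rests on 29 and 8 peaks, has no interval, and its difference from these values was not tested. SPIB, ETS2 and ELF4 had DMSO peaks and no MC2580 peak, the pattern of 22.8% of coding genes, or 24.0% away from dense bins. No ETS gene had a peak in MC2580 alone, a pattern found for 2.17% of coding genes, or 2.24% away from dense bins.

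**Figure D1:**
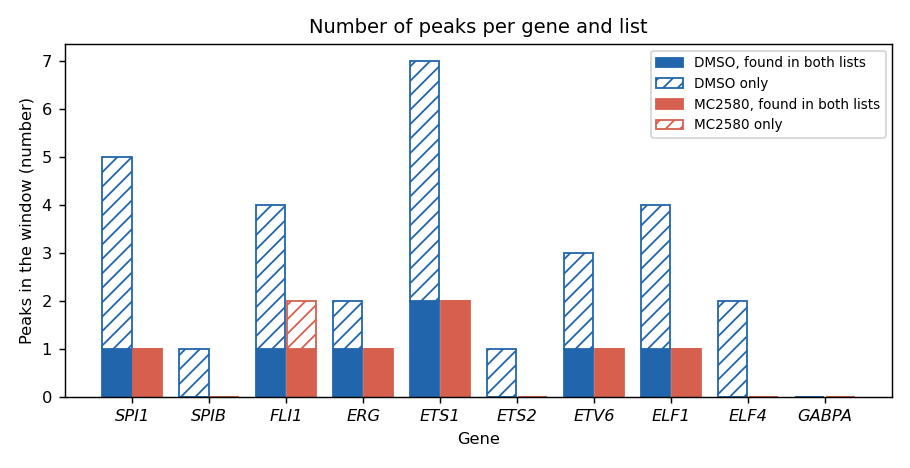
Number of V5-GSE1 peaks (y axis) in the window of each of the 10 ETS factor genes (x axis), with 1 bar for the DMSO list and 1 for the MC2580 list. ETS1, one of the longer genes, had the most peaks with 7 in DMSO and 2 in MC2580, and GABPA had none in either list.

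Most of the peaks were intronic. In DMSO the centers of 20 of the 29 peaks lay in an intron of the ETS gene and none lay in an exon of the reference transcript. The centers of 2 more were inside the gene span but outside that transcript, and 7 were outside the span. The nearest start site of any coding gene belonged to the ETS gene for 23 of the 29. The other 6 were nearer to a neighbor, namely 4 upstream peaks of SPI1 (SLC39A13), the SPI1 intron peak (MYBPC3) and the SPIB peak (NR1H2). Of the 8 MC2580 peaks, 7 were intronic. Introns of the gene made up 38.8% of the bases in the 10 windows, and held 69.0% of the DMSO peaks and 87.5% of the MC2580 peaks. Over the windows of all coding genes, where a peak counts once for each window it lies in, introns of the gene made up 33.3% of the bases and held 24.7% of the DMSO and 24.9% of the MC2580 peaks. Away from dense bins they held 23.9% and 23.5%. In these shares over all coding genes, a peak in an intron of a gene also counts as not intronic in the windows of its neighbors. No peak at the ETS genes was counted more than once, so the shares were not counted alike.

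Promoter peaks were few. A peak within 3 kb of any annotated start site of the gene was found in DMSO for FLI1, ETV6 and ELF1, 3 of 10, against 16.1% of coding genes and 12.3% of those away from dense bins. In MC2580 it was found for FLI1 alone, 1 of 10, against 7.87% and 4.47%. PU.1 itself had no promoter peak in either list.

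**Figure D2:**
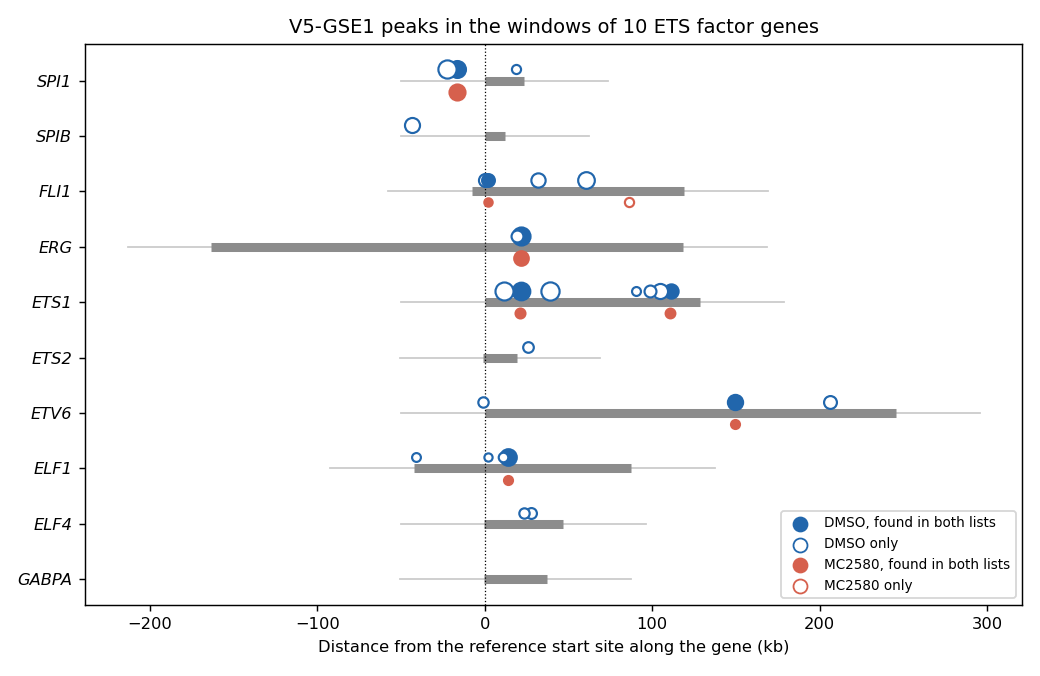
Positions of the peaks along each of the 10 genes, as distance from the start site of the reference transcript in kb along the gene (x axis), with 1 row per gene and separate marks for DMSO and MC2580 peaks. Most marks fell within gene bodies, and 4 of the 5 DMSO marks of SPI1 lay 14.952 to 22.624 kb upstream of its start site, with the other 18.862 kb downstream.

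Of the SPI1 peaks (ENSG00000066336.12, hg38 chr11:47354860-47378547, minus strand), 4 of the 5 in DMSO lay upstream of the gene. The highest, chr11:47400684-47401659, had a score of 254.08, was centered 22.6 kb upstream and had no MC2580 peak within 5257 bp. The next, chr11:47394410-47395365, had a score of 219.17 and was centered 16.3 kb upstream. It was the only place at SPI1 called in both lists: the MC2580 peak chr11:47394298-47395427 covered it whole, over 956 bp, with a score of 196.52. The ratio of these scores, 0.897, was the highest of any overlapping pair at the 10 genes. An upstream regulatory element on which PU.1 and RUNX1 act is known for SPI1, but no annotation of it was used, and whether either peak covers it was not tested.

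Of the 3 weaker SPI1 peaks, 2 were near the strong ones. The peak chr11:47399692-47400632, with a score of 86.02, ended 51 bp before the strongest began, and chr11:47393120-47393878, with a score of 58.74, lay 420 bp from the MC2580 peak. The fifth, chr11:47359253-47360117, was in intron 3, 18.9 kb downstream of the start site, with a score of 63.83. None of these 3 overlapped an MC2580 peak. Shown here are the central 200 bases of the peak called in both lists and then of the strongest peak, which was called in DMSO only, on the plus strand of hg38, with capitals marking GGAA or its reverse complement TTCC.
SPI1 chr11:47394787-47394986: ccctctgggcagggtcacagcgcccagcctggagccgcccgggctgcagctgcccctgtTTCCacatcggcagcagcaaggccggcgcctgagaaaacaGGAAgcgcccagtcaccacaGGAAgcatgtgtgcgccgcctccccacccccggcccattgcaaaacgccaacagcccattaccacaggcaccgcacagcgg
SPI1 chr11:47401071-47401270: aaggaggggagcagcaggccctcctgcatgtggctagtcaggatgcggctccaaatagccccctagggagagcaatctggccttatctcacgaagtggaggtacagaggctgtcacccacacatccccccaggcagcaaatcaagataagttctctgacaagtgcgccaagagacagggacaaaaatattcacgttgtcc
The first window had 3 ETS cores and a GC content of 68%. The second had none. It held the GATA word AGATAAG on both strands instead, as cttatct at bases 82 to 88 and as agataag at bases 144 to 150, and its GC content was 54.5%. The first of these windows was chosen for display after its values were seen.

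**Figure D3:**
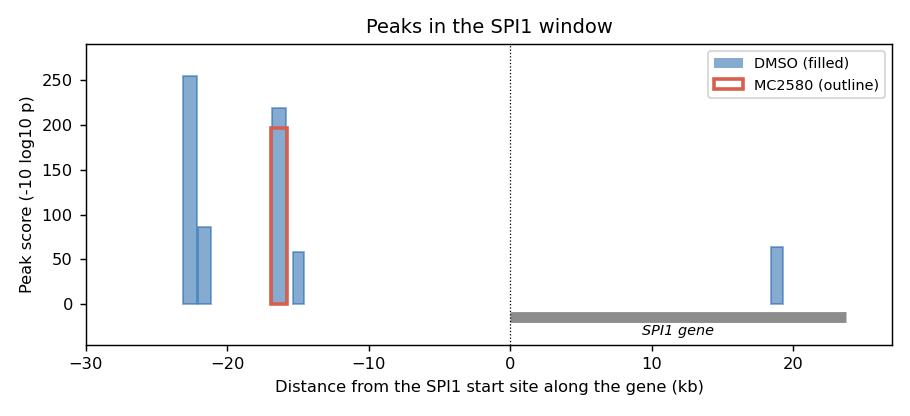
V5-GSE1 peaks in the SPI1 window, with distance from the SPI1 start site in kb along the gene (x axis, negative upstream) against the MACS score (y axis). Filled bars are DMSO peaks and the outlined bar is the single MC2580 peak, which sits over the DMSO peak 16.3 kb upstream with a score of 196.52.

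SPIB, the closest relative of PU.1 and a factor of B cells and plasmacytoid dendritic cells, had 1 DMSO peak (ENSG00000269404.7, chr19:50418938-50431314, plus strand). It was chr19:50374803-50375737, with a score of 173.55, 43.7 kb upstream of SPIB. This peak was within the NR1H2 gene, 1187 bp from the start site of that gene, so its place among SPIB peaks comes from the 50 kb window. The nearest MC2580 peak was 237597 bp away. Without this peak, SPIB would have none in either list.

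FLI1 and ERG, sister factors that keep blood stem and progenitor cells and megakaryocytes going, had peaks in both lists. FLI1 (ENSG00000151702.18, chr11:128686535-128813267, plus strand) had 4 DMSO peaks and 2 MC2580 peaks. The peak chr11:128693504-128694452, with a score of 130.59, lay over a FLI1 start site and was centered 94 bp upstream of the reference one. It had no counterpart, meaning no peak of the other list that shared at least 1 bp with it. The nearest MC2580 peak was 1235 bp away. That MC2580 peak, chr11:128695687-128696327, scored 53.15 and lay wholly within the DMSO peak chr11:128695457-128696501, which scored 125.51 and was centered 1.91 kb into intron 1. So the peak over the start site was called in DMSO only, and the adjoining intronic one was called in both lists with a score ratio of 0.423.

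The strongest FLI1 peak was chr11:128753552-128755038, with a score of 213.11, 60.2 kb downstream in intron 1 and 3068 bp from another FLI1 start site, just beyond the promoter limit. Another intron 1 peak, chr11:128725130-128726246, scored 156.43. Both were called in DMSO only. The single MC2580 peak at any of the 10 genes that lacked a DMSO counterpart was also at FLI1. It was chr11:128779902-128780638 in intron 4, with a score of 65.2, and the nearest DMSO peak was 24864 bp away.

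The window at the center of the strongest FLI1 peak is shown.
FLI1 intron 1 chr11:128754195-128754394: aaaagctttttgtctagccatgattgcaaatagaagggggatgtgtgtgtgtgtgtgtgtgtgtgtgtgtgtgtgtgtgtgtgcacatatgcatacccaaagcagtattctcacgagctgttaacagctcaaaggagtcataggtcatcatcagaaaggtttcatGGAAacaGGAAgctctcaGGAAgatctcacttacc
It held 3 cores near its 3′ end and an uninterrupted TG repeat of 42 bases.

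ERG (ENSG00000157554.20, chr21:38380027-38661780, minus strand) had 2 DMSO peaks, both in the first intron of its reference transcript. The stronger, chr21:38476106-38477071, had a score of 249.88 and was centered 21.9 kb downstream of the start site. It overlapped the MC2580 peak chr21:38476064-38477021 over 916 bp, with an MC2580 score of 162.25 and a ratio of 0.649. The weaker, chr21:38478572-38479495, scored 108.13 and had no counterpart. After the shared SPI1 peak, ERG had the highest MC2580 score of the set. The central window of the stronger ERG peak in DMSO, which was called in both lists, is shown.
ERG chr21:38476488-38476687: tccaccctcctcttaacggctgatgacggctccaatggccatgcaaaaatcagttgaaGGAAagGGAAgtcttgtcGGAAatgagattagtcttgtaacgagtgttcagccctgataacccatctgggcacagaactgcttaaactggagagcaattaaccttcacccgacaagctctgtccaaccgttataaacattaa
The 3 cores stood close together, all on the printed strand.

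ETS1 and ETS2, the founding pair of the family, differed in the number of peaks. ETS1 (ENSG00000134954.14, chr11:128458761-128587558, minus strand), a factor best known from lymphoid cells, had 7 DMSO peaks, all intronic, with scores from 61.07 to 254.55. The highest of all peaks at the 10 genes was here, chr11:128548208-128549343 in intron 3, 38.8 kb downstream of the start site, and it was called in DMSO only. So was the second highest ETS1 peak, chr11:128575199-128576557 in intron 1, with a score of 249.27. The strongest ETS1 peaks in DMSO thus had no MC2580 call.

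The ETS1 peaks called in both lists were chr11:128565643-128566629 in intron 2 and chr11:128475684-128477480 in intron 8. The first scored 237.93 in DMSO, and its MC2580 peak scored 75.41, a ratio of 0.317, with 883 bp shared. The second scored 155.65 and 72.56, a ratio of 0.466, with 911 bp shared. The remaining DMSO peaks, in introns 7, 5 and 3, had scores of 175.22, 108.93 and 61.07 and no counterpart. ETS1 lies next to FLI1 on chromosome 11 with 98976 bp between the genes, and no peak was counted for both.

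ETS2 (ENSG00000157557.13, chr21:38805183-38824955, plus strand) had 1 DMSO peak, chr21:38831172-38832140, with a score of 87.03, starting 6217 bp beyond the end of the gene. The nearest MC2580 peak was 354151 bp from it. The central windows of the top peaks of both genes follow, the highest and the lowest top score among the genes with a peak.
ETS1 chr11:128548675-128548874: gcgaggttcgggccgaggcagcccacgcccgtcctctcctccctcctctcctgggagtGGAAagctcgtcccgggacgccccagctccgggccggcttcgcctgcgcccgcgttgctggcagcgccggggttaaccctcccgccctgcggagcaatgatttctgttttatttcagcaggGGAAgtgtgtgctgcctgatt
ETS2 chr21:38831556-38831755: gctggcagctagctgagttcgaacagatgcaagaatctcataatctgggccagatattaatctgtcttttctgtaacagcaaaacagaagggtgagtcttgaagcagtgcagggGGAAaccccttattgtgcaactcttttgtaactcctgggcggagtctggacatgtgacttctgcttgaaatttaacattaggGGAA
Each held 2 cores, at a GC content of 67% for ETS1 and 45% for ETS2.

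ETV6, a repressor needed for bone marrow hematopoiesis and a frequent partner in leukemia fusions, had 3 DMSO peaks (ENSG00000139083.11, chr12:11649674-11895377, plus strand). The peak in intron 2, chr12:11798519-11799525, scored 176.92 in DMSO. The MC2580 peak inside it, chr12:11798626-11799473, scored 61.57, a ratio of 0.348. The promoter peak chr12:11648563-11649285, centered 750 bp upstream of the start site with a score of 82.47, and the intron 4 peak chr12:11854931-11856308, with a score of 126.79, were called in DMSO only. The central window of the shared peak, the strongest ETV6 peak in DMSO, is shown.
ETV6 chr12:11798922-11799121: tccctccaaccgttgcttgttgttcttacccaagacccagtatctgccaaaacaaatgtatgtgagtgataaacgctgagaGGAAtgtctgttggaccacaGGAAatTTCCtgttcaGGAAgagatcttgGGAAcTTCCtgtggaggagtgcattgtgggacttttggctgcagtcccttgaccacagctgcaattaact
It held 6 cores, more than any other window printed, 4 on the printed strand and 2 on the other.

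ELF1 and ELF4 belong to the ELF subfamily, which acts in lymphoid and myeloid cells. ELF1 (ENSG00000120690.16, chr13:40931924-41061440, minus strand) had 4 DMSO peaks and 1 MC2580 peak. The strongest, chr13:41004617-41005839, scored 211.01 in intron 1, and the MC2580 peak chr13:41004692-41005535 within it scored 62.01. This ratio, 0.294, was the lowest of any pair at the 10 genes. The other 3 scored between 51.91 and 69.78 and were called in DMSO only. Among them were both ELF1 promoter peaks, chr13:41016994-41017775 with a score of 51.91 and chr13:41059846-41060709 with a score of 59.69, which lay 731 bp from an alternative start site. The promoter count for ELF1 therefore rests on peaks near the threshold. The central window of the strongest ELF1 peak is shown, and it held no ETS core. In windows of 400 bp all 29 DMSO peaks held a core, so this absence holds for the central bases only.
ELF1 chr13:41005128-41005327: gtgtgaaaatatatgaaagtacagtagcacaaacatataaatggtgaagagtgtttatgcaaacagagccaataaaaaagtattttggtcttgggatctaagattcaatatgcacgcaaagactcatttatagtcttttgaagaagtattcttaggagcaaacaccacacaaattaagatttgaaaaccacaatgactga
It had a GC content of 32.5%, with the RUNX word TGTGGTTT on the minus strand at bases 185 to 192.

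ELF4 (ENSG00000102034.18, chrX:130063955-130110716, minus strand) had 2 DMSO peaks in intron 1. They were chrX:130082700-130083471, with a score of 90.36, and chrX:130086557-130087561, with a score of 82.46. The nearest MC2580 peak to the gene was 11087288 bp away.

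GABPA (ENSG00000154727.11, chr21:25734570-25772460, plus strand) had no peak in its window. The nearest DMSO peak was 170463 bp away and the nearest MC2580 peak 3217809 bp away.

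Across the 10 genes, 7 of 29 peaks in DMSO shared bases with an MC2580 peak, which is 24.1% (12.2% to 42.1%). In the full DMSO list this share was 33.6%, and away from dense bins 22.8%, so both values lay inside the interval. Conversely, 7 of 8 peaks in MC2580 shared bases with one in DMSO, 87.5% (52.9% to 97.8%), against 58.0% of the full MC2580 list and 54.6% away from dense bins. That interval reached below both values.

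All 7 pairs had a lower score in MC2580, against 76.7% of the 5449 pairs in the full lists and 90.6% of those away from dense bins. The median ratio was 0.423, and the range ran from 0.294 at ELF1 to 0.897 at SPI1. The median ratio of the full lists was 0.638, and that of the 2263 pairs away from dense bins was 0.421. The median score ratio at the ETS genes was thus close to that of pairs away from dense bins. The SPI1 pair had the highest ratio of the 7.

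**Figure D4:**
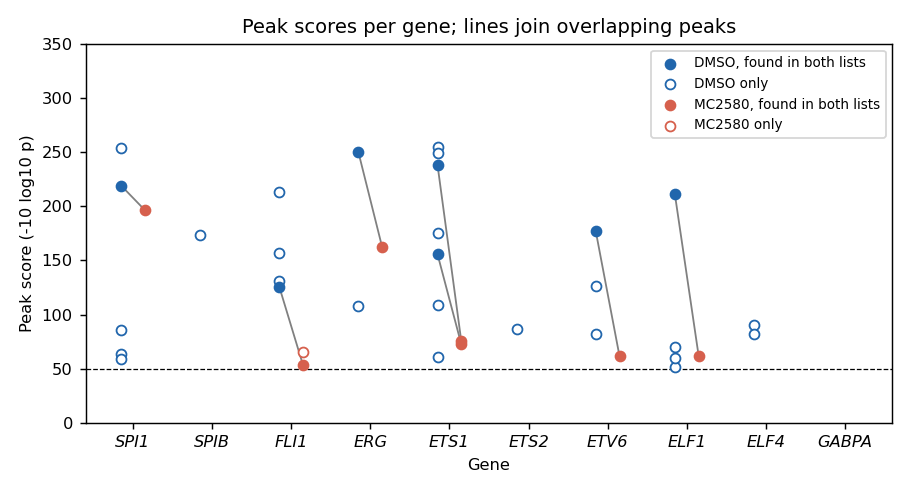
MACS score of each peak (y axis, linear) by gene (x axis). Filled points are peaks called in both lists, open points are peaks called in 1 list, lines join overlapping peaks and the dashed line is the caller's threshold at 50. Every line slopes down from DMSO to MC2580, and the line for SPI1 slopes least.

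The peaks at the ETS genes were of middle strength. Their DMSO scores ran from 51.91 to 254.55 with a median of 126.79 (95% interval of the median from order statistics 86.02 to 176.92), against a median of 91.08 for the full DMSO list and 91.66 away from dense bins. In MC2580 they ran from 53.15 to 196.52 with a median of 68.88 (53.15 to 196.52), against 78.1 for the full MC2580 list and 67.22 away from dense bins. None of the 37 peaks reached the highest 10% of its list, which began at 321.81 in DMSO and at 236.168 in MC2580. The DMSO peaks were 723 to 1797 bp wide, and together they covered 29.7 kb against 6.96 kb in MC2580.

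Whether a DMSO peak had an MC2580 counterpart went with its score, although the highest peaks, of ETS1 with 254.55 and SPI1 with 254.08, had none. The DMSO score had a median of 211.01 for the 7 peaks with a counterpart and 99.2 for the 22 without. Of the 11 peaks scoring under 100, 0 had a counterpart, with a Wilson upper limit of 25.9%. The limit by 3 counts of the total, the rule for a count of 0, is 27.3%. For the full list that share was 16.4%, and away from dense bins 5.61%. Of the 10 peaks from 100 to 200, 3 had one, 30% (10.8% to 60.3%), against 39.8% and 23.8%. Of the 8 peaks from 200 to 300, 4 had one, 50% (21.5% to 78.5%), against 62.2% and 48.9%. In each band the interval held both the share of the full list and the share away from dense bins.

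**Figure D5:**
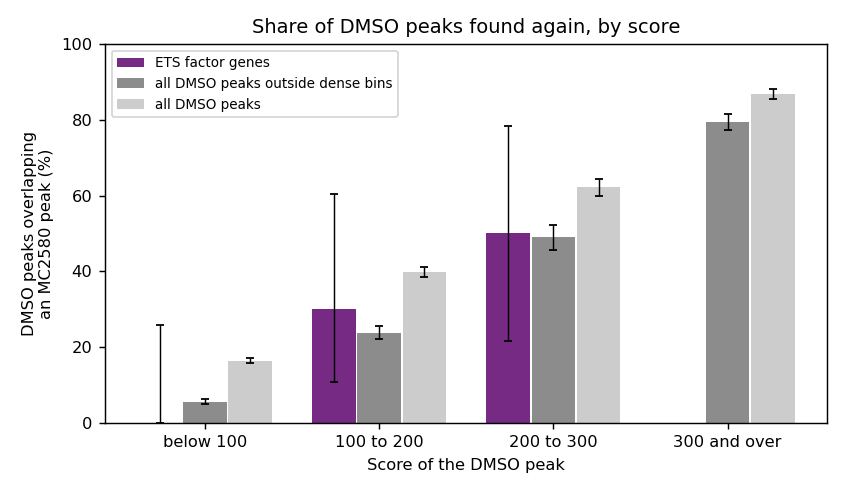
Percentage of DMSO peaks with an MC2580 counterpart (y axis, from 0) by DMSO score band (x axis), for the ETS gene peaks, the full list and the list outside dense bins, with 95% Wilson intervals. The share rose with the score in all 3 sets, from 0 of 11 to 4 of 8 for the ETS gene peaks, which had no peak at a score of 300 or above.

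The central 200 bases of each peak were also searched on both strands for words that ETS and other factors read. The shares in parentheses are of all peaks of the list on the assembled chromosomes and then of those away from dense bins. The ETS core GGAA was in 25 of the 29 DMSO windows (86.4% and 89.4%) and in 8 of 8 MC2580 windows (84.8% and 88.6%), with a median of 2 cores in DMSO as in the full list. The longer PU.1 word GAGGAAGT, which contains the core, was in 1 of 29 (2.96% and 4.31%) and 0 of 8 (1.95% and 3.40%). The ETS word CCGGAAGT, which contains the core too, was in 0 of both (84 of 21145 windows searched in DMSO and 26 of 12971 in MC2580). A core this short is found in most windows of this length, and the share at the ETS genes was near that of the list.

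Among the words of other factors, the GATA word differed most from the list in DMSO. AGATAAG was in 6 of 29 DMSO windows, 20.7% (3.30% and 4.15%), 3 of them at SPI1, 2 at ETS1 and 1 at ERG. It was in 1 of 8 MC2580 windows (3.10% and 4.66%), at ETS1. With windows widened to 400 bp the DMSO count stayed at 6 of 29, whereas the shares of the list rose (6.09% and 7.14%). These are small counts, the peaks of a gene share a locus, and the difference was not tested. The RUNX word TGTGGTTT was in 3 of 29, 10.3% (4.64% and 7.37%), at FLI1, ERG and ELF1, and in 0 of 8 MC2580 windows (3.18% and 5.90%). The AP-1 word TGAGTCA was in 2 of 29, 6.90% (6.36% and 8.78%), and in 0 of 8 (5.04% and 6.96%). The GFI1 word AATCAC was in 3 of 29, 10.3% (10.8% and 11.3%), and in 0 of 8 (9.69% and 8.81%). A word is a match of letters and no measurement of binding by the factor.

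Other genes of the ETS pathway were described from 3 lists, beside shares over coding genes of 47.9% with a DMSO peak and 27.3% with an MC2580 peak (44.3% and 22.6% away from dense bins). No counts within an equal span of the start site are given for these lists, so gene length enters them. Of 18 further ETS family genes, 12 had a DMSO peak in the window and 5 an MC2580 peak, with 26 and 8 peaks in all, so the MC2580 count was near the share over all coding genes. Promoter peaks were found for 5 of the 18 in DMSO, against 16.1% of coding genes (12.3% away from dense bins). In MC2580 they were found for 3, against 7.87% (4.47%). These 3, ETV1, EHF and ELK3, had promoter peaks in both lists. Their DMSO scores were 280.91, 362.99 and 177.27, and their MC2580 scores were 111.12, 123.73 and 72.39. ELK3, a repressor of the ternary complex group, had 12 DMSO peaks and 2 MC2580 peaks.

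Of 12 genes for partners and antagonists of PU.1, 9 had a DMSO peak and 9 an MC2580 peak, with 48 and 26 peaks. However, 1 of these windows, that of IRF4, touched a dense bin and held 11 of the DMSO and 12 of the MC2580 peaks. RUNX1 held another 15 and 5. The genes were not all the same. Peaks in DMSO only were found for 1 gene, against 22.8% of coding genes (24.0% away from dense bins). A peak in MC2580 only was found for 1, against 2.17% (2.24%). Promoter peaks were found for 4 of the 12 genes in DMSO and for 2 in both lists. GFI1, the repressor that recruits LSD1, had a promoter peak in both lists, with a score of 417.8 in DMSO and 71.3 in MC2580. MYB, a factor of proliferating progenitors, scored 565.69 and 162.06. Of 18 myeloid target genes of PU.1, 11 had a DMSO peak and 5 an MC2580 peak, with 30 and 12 peaks, the MC2580 count again near that share. Promoter peaks were found for 4 of these 18 genes in DMSO and for 2 in both lists. The 2 were MPO, the myeloperoxidase of azurophil granules, with 816.58 and 146.32, and ITGB2, the common chain of leukocyte integrins, with 515.41 and 177.69.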

How the data were processed

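NB4 V5-GSE1 ChIP-seq reads were aligned by the authors to hg38 with Bowtie (given as version 4.8.2), and MACS called peaks in each condition against the respective input and the EV V5 ChIP. How these backgrounds were combined is not given in the sources used here. The deposited score is 10 times the negative log10 of the MACS p-value. Read depth is unknown. The members and gene lists were chosen with earlier results of these data known. All 10 genes were described, with their number of peaks and the strongest and the nearest peak in each list. Genes of the other gene lists were named where both peak lists had a promoter peak. IRF4 and RUNX1 were named for their numbers of peaks.

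Windows were GENCODE version 44 gene spans extended by 50 kb, and overlap meant at least 1 bp. Promoters reached 3 kb from any start site, and distances refer to MANE Select transcripts. Dense bins held at least 40 peaks of both lists per 1 Mb. Sequences were printed for the strongest DMSO peak of a gene and for the SPI1 peak called in both lists, and some are not reported here. The counting was tested on simulated data. Python 3.11.15, pandas 2.3.3, numpy 2.4.6, scipy 1.17.1 and pysam 0.24.0 were used. With 1 library per condition no test was made.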

Additional observations from a re-analysis of the deposited data

How the results depend on the processing

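No paired analysis was possible because the lists come from single libraries, and none could be left out. Of 165 values recomputed under other settings, some of them chosen after seeing the data, 154 were counted as unchanged and 11 as moved. Counted as unchanged did not always mean close. With peaks scoring at least 100 only, the median score went from 68.88 to 179.385 in MC2580 and from 126.79 to 176.07 in DMSO. Leaving out dense bins or the widest peaks could not change a value, because no peak at the ETS genes was in either group. With peaks scoring at least 100 only, 18 DMSO and 2 MC2580 peaks were left (ratio 0.111), 2 genes had an MC2580 peak, promoter peaks were found for 1 gene in DMSO and 0 in MC2580, overlap was 11.1% of DMSO and 100% of MC2580 peaks, and MC2580 peaks covered 2088 bp. With a promoter limit of 1 kb, 0 genes had an MC2580 promoter peak. In windows of 400 bp the GATA word was in 2 MC2580 peaks. Over all alternatives the ratio of MC2580 to DMSO peaks ran from 0.111 to 0.348. Extending the genes by 100 kb gave 32 and 9 peaks. Without ETS1, which had the most DMSO peaks, 22 and 6 were left. Scores near the threshold limit which peaks are called at all, and the depth of each library is unknown.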
